A study of Drosophila melanogaster with 8 samples.

Results

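The Trithorax group genes trx, ash1, ash2, trr, brm, mor, osa, Snr1, kis and skd were followed in a pair of Drosophila melanogaster cell lines. These 10 genes were taken by their symbols from tables of 17730 genes, all 10 were found, and all 10 passed the filter on low counts that left 11606 genes. Polyadenylated RNA was sequenced from ML-DmD17-c3 (D17-c3), a line derived from imaginal discs, and from S2-DRSC, a stock of the embryonic S2 line with hemocyte features. Each line gave 4 libraries from separate culture flasks, with no treatment or genetic change in the labels of either, and the series as a whole concerns Polycomb group proteins and related factors. Each line is a single cultured line, so a difference between the lines holds for these stocks and not for disc or blood cells in the animal.

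Trithorax group proteins keep developmental genes such as the Hox genes in an active state and counteract silencing by the Polycomb group. They work in several kinds of complex. COMPASS-type complexes, built around trx, trr or Set1, methylate lysine 4 of histone H3, and the Brahma complex moves nucleosomes with the energy of ATP. Mediator links transcription factors to RNA polymerase II, and its kinase module is a separate part that joins the rest of it. The members are not copies of one another, and their products sit in different complexes.

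Total expected counts, the estimated reads per gene summed over a library, ran from 76822525 to 110163700. Levels between the lines are given as CPM, reads per 1000000 of library sizes scaled with the TMM method, and levels between genes as TPM, transcripts per 1000000, which are per transcript length. The line labels were checked against marker lists. Counts of calls here and below are to be read beside the shares over all tested genes. Of these 75.2% were called, 39.1% toward D17-c3 and 36.1% toward S2-DRSC. Of 12 imaginal disc markers, 11 were called toward D17-c3 and 1, ap, toward S2-DRSC. Of 12 hemocyte markers, 6 were called toward S2-DRSC and 3 toward D17-c3, and their summed TPM was 9304 to 11249 in S2-DRSC libraries against 496 to 768 in D17-c3 libraries. Most of that sum was Nplp2 (7430 to 9374 against 13.7 to 20.4 TPM), and the other 11 markers summed to 1873 to 1917 against 482 to 747 TPM. The plasmatocyte receptor gene NimC1 was low in both lines, at 0.77 to 1.35 CPM in D17-c3 replicates 1, 3 and 4, 4.34 CPM in D17-c3 replicate 2 and 1.89 to 2.26 CPM in S2-DRSC. It had no call with all libraries and was called toward S2-DRSC without D17-c3 replicate 2 (log2 -0.97, edgeR adjusted p = 0.00117). Of 5 tested muscle markers all 5 were called toward D17-c3, with summed TPM of 4.08 to 8.01 against 1.09 to 1.84. Of 6 neuron markers 1 was called toward D17-c3 (futsch, log2 4.01) and 3 toward S2-DRSC (among them brp, log2 -5.40), with sums of 19.0 to 38.1 and 20.8 to 22.6 TPM. Of 5 germ line markers 1 was called toward D17-c3 (vas) and 3 toward S2-DRSC, and their sums of 20.8 to 24.6 and 97.2 to 100.2 TPM were mostly aub, without which they were 3.43 to 6.04 and 5.13 to 5.80 TPM. D17-c3 replicate 2 stood furthest from its line, with a mean correlation of 0.9801 with the other D17-c3 libraries, against 0.9874 to 0.9909 for those and 0.9946 to 0.996 within S2-DRSC. In bulk RNA, fewer cells of a type and less RNA per cell cannot be told apart.

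Trithorax group genes were well expressed in both lines and none differed by as much as 2-fold. Of the 10, trx and skd were higher in D17-c3, and mor, trr, ash2 and ash1 were higher in S2-DRSC (edgeR quasi-likelihood test, Benjamini-Hochberg adjusted p under 0.05). The other 4, brm, osa, Snr1 and kis, had no call. Over all 11606 tested genes 75.2% were called, 39.1% higher in D17-c3 and 36.1% higher in S2-DRSC, so 6 calls among 10 is not a high share. Of all calls, 52% were higher in D17-c3, and 62.9% were on unscaled TPM, where the median log2 fold change of the tested genes was 0.18 or 0.25 by pseudocount instead of 0.04. For 6 members no library of one line reached the range of the other, against 71.6% of all tested genes. Sizes were small beside the background: the median absolute log2 fold change was 0.34 for the members and 0.81 for all tested genes. Across all tested genes 43% were called with at least a 2-fold change. Every member stood above at least 53.4% of the tested genes in mean TPM in D17-c3, and sizes in genes of matched level were not compared. The median signed log2 fold change was -0.09 for the members.

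**Figure D1:**
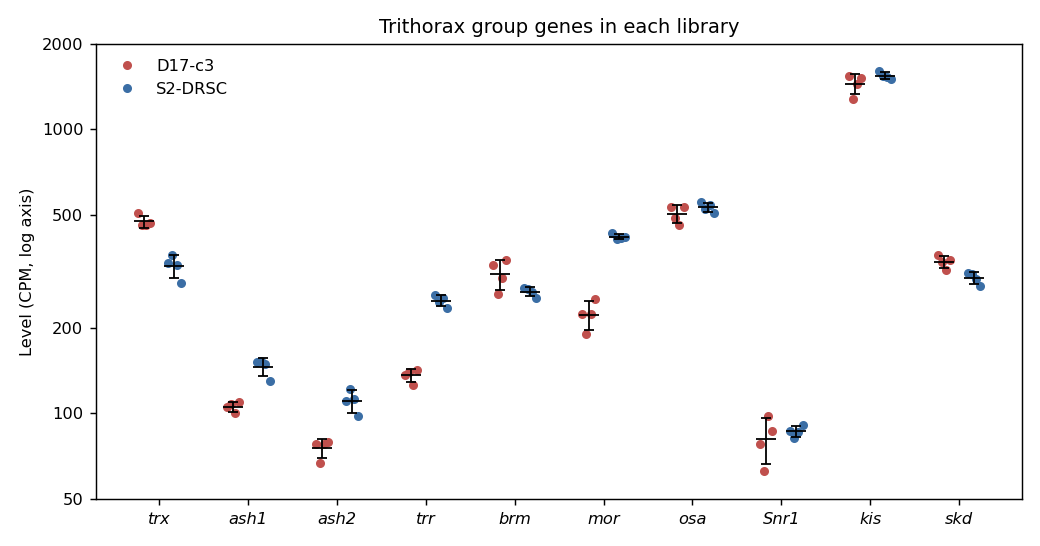
Level of each Trithorax group gene in CPM of TMM-scaled library sizes on a log axis, 1 point per library, with the mean and SD of 4 libraries per line as black marks. The clearest separations are those of mor (190.2 to 253 CPM in D17-c3 against 410.1 to 432) and trr (126 to 142 against 235 to 260.4), while the points of osa, Snr1, kis and brm overlap between the lines.

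The histone methyltransferase genes of the COMPASS family moved in opposite directions. trx (3R, 14263358 to 14286903, minus strand, BDGP6) encodes the founding member of the group, a methyltransferase of histone H3 lysine 4 related to mammalian MLL1 and MLL2. It had 508, 460, 461 and 468 CPM in D17-c3 replicates 1 to 4, and 339, 361, 334 and 287 CPM in S2-DRSC replicates 1 to 4. Every D17-c3 library lay above every S2-DRSC library, and S2-DRSC replicate 4 was the lowest of all. The log2 fold change of D17-c3 over S2-DRSC was 0.52 ± 0.08 (SE), or 1.43-fold (edgeR adjusted p = 0.000293).

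trr (X, 1881313 to 1889950, minus strand) encodes the related methyltransferase that acts mainly at enhancers, like mammalian MLL3 and MLL4. Its CPM values were 137, 139.6, 126 and 142 in D17-c3 and 260.4, 247, 255 and 235 in S2-DRSC. The S2-DRSC libraries were all higher, with a wide gap to the D17-c3 libraries, and the log2 fold change was -0.87 ± 0.07 (edgeR adjusted p = 1.58e-06). ash2 (3R, 24650125 to 24653376, plus strand) encodes a core subunit that all COMPASS-type complexes share. It stood at 78.2, 66.8, 77.8 and 79.0 CPM in D17-c3 and 111, 122, 112 and 97.7 CPM in S2-DRSC. Here too the S2-DRSC libraries were all higher, the log2 fold change being -0.55 ± 0.09 (edgeR adjusted p = 0.000245). The calls for trx, trr and ash2 held in each of 17 alternative analyses.

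Because trx and trr moved apart, their balance within a library was the largest difference seen among the 10 ratios computed. A ratio of a pair of genes in a library does not depend on how libraries are scaled. TPM of trx and of trr each separated the lines, in opposite directions, so the trr/trx ratio had to separate them too. The trr/trx ratio of TPM values was 0.435 to 0.488 in D17-c3 libraries and 1.11 to 1.33 in S2-DRSC libraries, a 2.66-fold difference (two-sided exact permutation test, p = 0.0286, the smallest that 4 against 4 libraries can give; 0.0408 adjusted over the 10 ratios). trx was thus the more abundant transcript per length in each D17-c3 library and trr in each S2-DRSC library. The ash2/trx ratio was 1.38 to 1.64 in D17-c3 and 3.23 to 3.39 in S2-DRSC, 2.18-fold apart with the same exact p. The ash2/trr ratio overlapped, at 2.82 to 3.73 and 2.51 to 3.06 (exact permutation adjusted p = 0.0714). Utx, the demethylase of histone H3 lysine 27 that joins trr in its complex, had no call itself (104 ± 3.64 and 98.5 ± 13.6 CPM), and the Utx/trr ratio was 1.81 to 1.97 in D17-c3 and 0.862 to 1.17 in S2-DRSC (exact permutation adjusted p = 0.0408).

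Among 12 other COMPASS genes, 5 were called toward D17-c3, 4 toward S2-DRSC and 3 had no call, with a median log2 fold change of 0.17. All tested genes were called in similar shares, 39.1% toward D17-c3 and 36.1% toward S2-DRSC, so mixed directions are not particular to these genes. wds, which encodes the WD40 subunit common to these complexes, was at 55.8 ± 2.35 CPM in D17-c3 and 149 ± 11.3 in S2-DRSC (log2 -1.42 ± 0.07, edgeR adjusted p = 1.13e-07). Mnn1, the fly menin gene, whose product is a partner of trx, was at 32.9 ± 3.6 and 71.6 ± 12.2 CPM (log2 -1.12 ± 0.13), the opposite direction to trx. Lpt, which in the fly supplies the N-terminal part that trr lacks relative to its mammalian counterparts, was at 118 ± 9.39 and 82.9 ± 4.34 CPM (log2 0.51 ± 0.07), the opposite direction to trr. The methyltransferase gene Set1 was at 187 ± 17.1 and 268 ± 30.1 CPM and so higher in S2-DRSC (log2 -0.52 ± 0.10), and Wdr82, which encodes a subunit specific to the Set1 complex, was at 66.2 ± 7.35 and 41.6 ± 1.15 CPM and so higher in D17-c3 (log2 0.67 ± 0.08). The genes of any one of these complexes therefore did not all change in the same direction. On unscaled TPM, Set1 and Hcf lost their calls, which left 2 of the 4 higher in S2-DRSC.

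ash1 (3L, 19590773 to 19598755, minus strand) encodes a methyltransferase of histone H3 lysine 36. It was at 105, 108, 100.1 and 109.8 CPM in D17-c3 and 152, 153, 149 and 130 CPM in S2-DRSC, with no overlap. The log2 fold change was -0.47 ± 0.07 (edgeR adjusted p = 0.000192), and on unscaled TPM it was -0.22 or -0.21, with no call. MRG15, whose product activates the enzyme, had no call (37.8 ± 3.99 and 40.9 ± 1.47 CPM, log2 -0.12 ± 0.08), and its direction turned with library totals only (0.05) and on unscaled TPM (0.12).

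**Figure D2:**
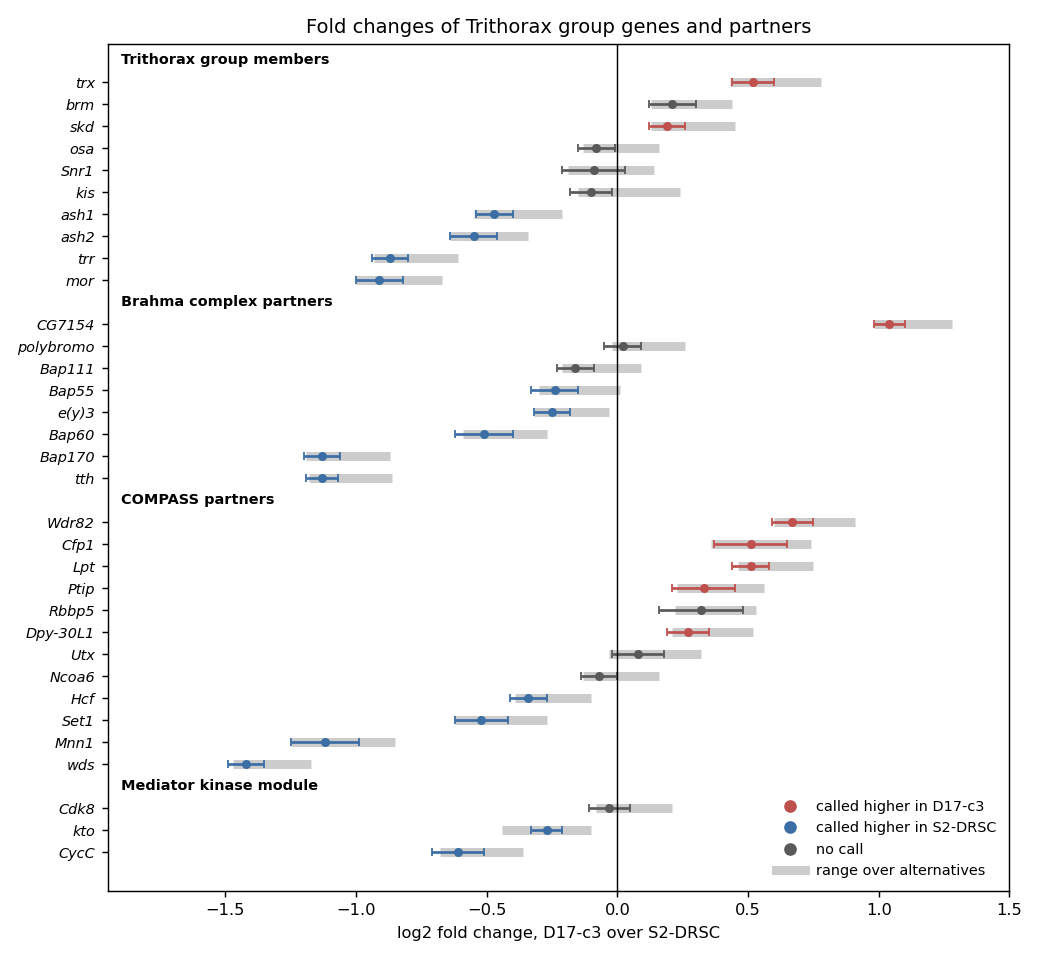
Fitted log2 fold change of D17-c3 over S2-DRSC with its SE for the 10 Trithorax group genes, 8 other Brahma complex genes, 12 other COMPASS genes and 3 Mediator kinase module genes, and as grey bars the range over 17 alternative analyses. The members lie between -0.91 and 0.52, and the grey bars of osa, Snr1 and kis cross 0.

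In the Brahma complex, the scaffold gene mor differed while the ATPase gene brm and the subunit gene osa did not pass the test. mor (3R, 15968134 to 15972913, minus strand) encodes the moira protein, related to mammalian BAF155 and BAF170. It had 224, 190.2, 224 and 253 CPM in D17-c3 and 432, 410.1, 416 and 419 CPM in S2-DRSC. The D17-c3 libraries were all well below the S2-DRSC libraries, with D17-c3 replicate 2 the lowest. Its log2 fold change of -0.91 ± 0.09 was the largest of the members (1.88-fold, edgeR adjusted p = 8.86e-06).

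brm (3L, 15970082 to 15982869, minus strand) encodes the ATPase that gives the complex its name. Its values were 333, 263, 299 and 346 CPM in D17-c3 and 276, 275, 267 and 256 CPM in S2-DRSC. The lines overlapped through D17-c3 replicate 2, and the log2 fold change was 0.21 ± 0.09 (edgeR adjusted p = 0.0607). Without that replicate it was 0.28 (adjusted p = 0.0021), and with library totals only it was 0.37 and called, so whether brm differed was not settled here.

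osa (3R, 17687818 to 17718350, minus strand) encodes the ARID-domain subunit that marks the BAP form of the complex. It was at 532, 489.7, 461 and 535 CPM in D17-c3 and 554, 524, 542 and 509 CPM in S2-DRSC, with the lines overlapping (log2 -0.08 ± 0.07, edgeR adjusted p = 0.356). Snr1 (3R, 5470926 to 5472754, plus strand), the fly counterpart of mammalian SMARCB1, had 78.2, 62.5, 98.1 and 86.9 CPM in D17-c3. In S2-DRSC it had 86.9, 82.2, 85.9 and 90.8 CPM. The D17-c3 libraries spanned the whole S2-DRSC range (log2 -0.09 ± 0.12, edgeR adjusted p = 0.537), and the direction of osa and Snr1 turned with library totals only and on unscaled TPM, and that of Snr1 also without D17-c3 replicate 2.

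Bap170, which encodes the ARID2-related subunit of the other form, PBAP, had one of the largest differences among the 8 partner genes. It was at 136, 119.8, 124 and 140.3 CPM in D17-c3 and 295, 273, 286 and 282 CPM in S2-DRSC, at no point near overlap (log2 -1.13 ± 0.07, edgeR adjusted p = 4.66e-07). polybromo, another subunit gene typical of PBAP, was at 139 ± 10.6 and 136 ± 2.81 CPM with no call. The partner gene e(y)3 was at 254 ± 15.0 and 303 ± 19.5 CPM (log2 -0.25 ± 0.07, edgeR adjusted p = 0.011). Its call ended with library totals only and on unscaled TPM. Beside 75.2% called over all tested genes, 1 of the 8 partner genes was called toward D17-c3 and 5 toward S2-DRSC (median log2 -0.24). With library totals only or on unscaled TPM these counts were 2 and 3. The gene higher in D17-c3 was CG7154, a bromodomain gene related to mammalian BRD7 and BRD9 (158 ± 4.3 against 77 ± 3.46 CPM, log2 1.04 ± 0.06). tth, a gene of the d4 family, was at 45 ± 1.83 against 98.6 ± 1.22 CPM (log2 -1.13 ± 0.06), and the core subunit gene Bap60 at 93.8 ± 14.4 against 134 ± 5.39 CPM (log2 -0.51 ± 0.11).

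Ratios within libraries do not depend on scaling but use the same values, so they are not separate evidence. TPM of mor and of brm each separated the lines, in opposite directions, so the mor/brm ratio had to separate them too. The mor/brm ratio of TPM values was 0.919 to 1.02 in D17-c3, about as much mor as brm per length, and 2.04 to 2.24 in S2-DRSC (2.18-fold, exact permutation p = 0.0286, adjusted p = 0.0408). The osa/brm ratio was 0.791 to 0.959 and 0.982 to 1.04 in the same order, a 1.21-fold difference without overlap and with the same exact p-values. The osa/Bap170 ratio was 1.90 to 2.09 in D17-c3 and 0.925 to 0.982 in S2-DRSC (2.07-fold, same exact p-values), whereas osa/polybromo overlapped at 1.57 to 1.96 and 1.86 to 1.97 (exact permutation adjusted p = 0.143). The Snr1/brm ratio also overlapped, at 1.04 to 1.45 and 1.33 to 1.57 (exact permutation adjusted p = 0.127). Of the 10 ratios, 7 passed, each without overlap of the lines. Besides trr/trx and mor/brm, the TPM ranges of the single genes also fixed the separation of ash2/trx, Utx/trr, osa/Bap170 and skd/kto. Among single tested genes 71.6% had no overlap in CPM, so 7 of 10 is not a high share, and ratios of other genes were not computed. The ratios are of RNA and do not measure the make-up of the protein complexes.

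**Figure D3:**
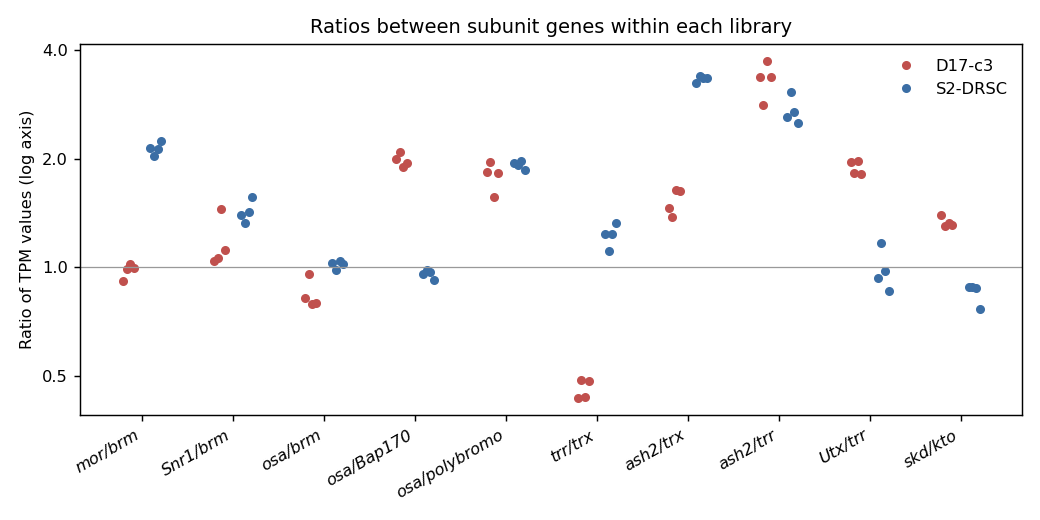
Ratio of TPM values of a pair of subunit genes in each library, on a log axis, with 4 points per line. The lines separate for 7 of the 10 ratios, among them trr/trx (0.435 to 0.488 in D17-c3, 1.11 to 1.33 in S2-DRSC) and mor/brm, and overlap for Snr1/brm, osa/polybromo and ash2/trr.

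kis (2L, 210735 to 250823, minus strand) encodes a chromatin remodeller of the CHD family related to mammalian CHD7. With 1539.6, 1283, 1448 and 1521 CPM in D17-c3 and 1603, 1545, 1534 and 1510 CPM in S2-DRSC, it took more reads than any other member. The lines overlapped and the log2 fold change was -0.10 ± 0.08 (edgeR adjusted p = 0.307). On unscaled TPM kis was called higher in D17-c3 (log2 0.24 on the log2(TPM + 1) scale, where the median of all genes was 0.18), and with library totals only its log2 fold change was 0.07 with no call.

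skd (3L, 20992814 to 21027434, minus strand) encodes Med13, which connects the kinase module to the rest of Mediator. It was at 362, 341, 319 and 346 CPM in D17-c3 and 312, 311, 298 and 281 CPM in S2-DRSC. The lines did not overlap but came close, the lowest D17-c3 library being replicate 3. The log2 fold change was 0.19 ± 0.07 (1.14-fold, edgeR adjusted p = 0.0302), and it lost its call in 9 of the 17 alternatives: DESeq2 (adjusted p = 0.0566), no filter, the replicate number as a block (adjusted p = 0.0619), and leaving out any single S2-DRSC flask, D17-c3 replicate 1 or D17-c3 replicate 4 (adjusted p = 0.0645 to 0.17).

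Its partners in the module went the other way or stayed level. kto, the gene of the partner subunit Med12, was the higher in S2-DRSC, with 191 ± 8.35 and 229.9 ± 5.16 CPM (log2 -0.27 ± 0.06, edgeR adjusted p = 0.00206), and so was CycC, the cyclin gene (18.8 ± 2.58 against 28.8 ± 0.873 CPM, log2 -0.61 ± 0.10). The kinase gene Cdk8 was at 18.4 ± 1.34 and 18.8 ± 0.252 CPM with no call. The call for kto ended with library totals only and on unscaled TPM. TPM of skd was at least 39.2 in D17-c3 and at most 37.1 in S2-DRSC. TPM of kto was at most 40.3 in D17-c3 and at least 40.3 in S2-DRSC, so the skd/kto ratio had to separate the lines. The skd/kto ratio of TPM values was 1.3 to 1.4 in D17-c3 and 0.769 to 0.882 in S2-DRSC (1.57-fold, exact permutation p = 0.0286, adjusted p = 0.0408). By expected counts, which are not per length, its log2 difference was 0.46 instead of 0.65, with the same exact p.

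Of 25 genes of the Mediator core, 7 were called toward D17-c3, 9 toward S2-DRSC and 9 had no call (median log2 -0.08), beside 75.2% called over all tested genes. MED23 (131 ± 14.5 against 48.5 ± 1.17 CPM, log2 1.44 ± 0.09) and MED4 (0.72 ± 0.14) led toward D17-c3. MED30 (22.5 ± 2.87 against 118 ± 13.2 CPM, log2 -2.39 ± 0.12) and MED16 (15.1 ± 2.04 against 67.3 ± 3.11 CPM, -2.16 ± 0.11) led toward S2-DRSC. On unscaled TPM the number higher in D17-c3 was 11.

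Ranked by TPM, which is per transcript length, kis was the highest member in D17-c3 (145 ± 14.8 TPM) and ash1 the lowest (20.3 ± 2.56 TPM), a span of several-fold. Below kis came Snr1 (98.4 ± 11.2), brm (85.3 ± 11.8), mor (83.5 ± 10.4), ash2 (79.1 ± 6.21) and osa (71.6 ± 9.87 TPM), and from Snr1 down to osa each overlapped the next in its libraries. trx (52.0 ± 5.46) and skd (48.1 ± 6.03 TPM) overlapped each other below osa, as did trr (24.1 ± 3.34 TPM) and ash1 at the bottom. In S2-DRSC mor was at the top with 133 ± 5.86 TPM, overlapping kis at 123 ± 5.92 TPM, and ash2 (101 ± 11.1 TPM) overlapped Snr1 (88.8 ± 3.75 TPM). osa (63.6 ± 4.17) and brm (62.3 ± 3.46 TPM) followed and overlapped. trr (37.0 ± 2.68) overlapped skd (35.0 ± 2.33), skd overlapped trx (30.2 ± 3.35 TPM), and ash1 was again the lowest at 23.6 ± 2.22 TPM. These TPM values are unscaled between libraries, so the order is to be read within a line. In D17-c3 the members stood above 53.4% (ash1) to 92.3% (kis) of the tested genes in mean TPM, and in S2-DRSC above 59.2% (ash1) to 92.1% (mor).

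Flasks of a line differed little for these genes. The coefficient of variation of CPM over 4 libraries had a median of 7.38% over the members in D17-c3 and 4.27% in S2-DRSC, against 17.1% and 8.27% over all tested genes. Every member stood above at least 53.4% of the tested genes in mean TPM in D17-c3, and genes of matched level were not compared. The widest member was Snr1 in D17-c3, at 18.4%. S2-DRSC replicate 4 was the lowest S2-DRSC library for 8 of the 10 members, all but mor and Snr1. It was the lowest for 36.5% of all tested genes and for 57.6% of the 915 tested genes with a mean transcript length of at least 5000 bases. D17-c3 replicate 2 was the lowest D17-c3 library for 6 members, against 39.9% of all tested genes and 46.1% of the 915 long ones. D17-c3 replicate 3 was the lowest for the other 4, ash1, trr, osa and skd, against 23.5% and 40.0%.

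The deposited tables also give each gene a length, the mean of its transcripts weighted by their estimated abundance. A change in it therefore reflects a change in the estimated shares of its transcripts. All transcript shares below rest on these estimates, which were not checked against reads. Snr1 has a single transcript and no such reading. Of the 9 other members, trx, kis and skd had longer mean transcripts in S2-DRSC and ash2 and mor in D17-c3 (limma on log2 length, adjusted over 5881 genes of varying length). Of these 5881 genes 34.3% were called, 22.5% longer in D17-c3 and 11.8% longer in S2-DRSC. The calls for kis, skd and trx held in each alternative tried, whereas those for ash2 and mor ended with effective length (adjusted p = 0.105 and 0.0988) and with the replicate number as a block (adjusted p = 0.135 and 0.0638). The call for ash2 (adjusted p = 0.0402) also ended on leaving out any 1 library other than D17-c3 replicate 3 or 4.

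The change in kis was the largest of the members and can be tied to transcripts. The annotation gives kis 1 short transcript of 8225 bases with 6453 coding bases and 5 long ones of 17731 to 18528 bases with 15573 to 16551 coding bases. The short and long forms thus encode proteins of very different size. The mean length was 14226, 14884, 14136 and 14220 bases in D17-c3 and 15316, 15473, 15263 and 15199 bases in S2-DRSC. All D17-c3 libraries were shorter, replicate 2 the least so, and the difference of the means was -946.1 bases (log2 -0.0923 ± 0.0173, limma adjusted p = 0.00658). These lengths bound the share of the short transcript at 36.9% to 42.6% of kis transcripts in D17-c3 replicates 1, 3 and 4, at 29.9% to 35.4% in D17-c3 replicate 2, and at 23.7% to 32.3% over the S2-DRSC libraries. The bounds of D17-c3 replicate 2 overlap those of S2-DRSC and the others do not. In unscaled TPM the long transcripts together were at 74.0 to 100.0 in D17-c3 and 78.9 to 96.7 in S2-DRSC, which overlap, and the short transcript at 40.7 to 66.3 and 28.3 to 40.4.

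**Figure D4:**
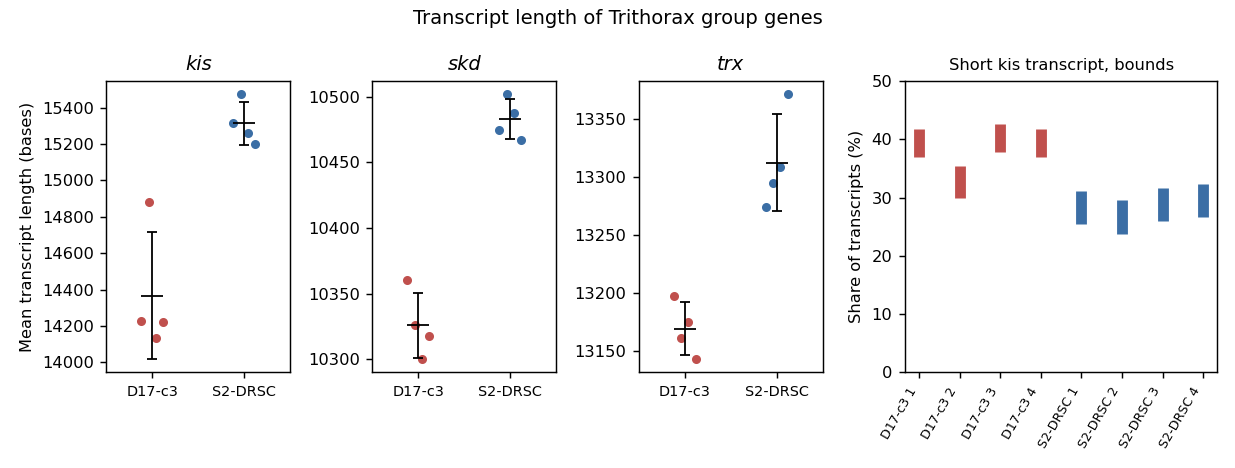
Mean transcript length in bases of kis, skd and trx in each library, with the mean and SD per line in black (the axes do not start at 0), and the lowest and highest share of the short kis transcript that each library's length allows. The D17-c3 libraries have shorter means for all 3 genes, and for kis D17-c3 replicate 2 lies nearest S2-DRSC.

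For trx the mean length was 13142.9 to 13197.3 bases in D17-c3 and 13274.4 to 13371.3 in S2-DRSC (limma adjusted p = 0.00355), a difference of -142.8 bases. Its transcripts fall into 3 with 10074 coding bases and 2 longer ones with 11178, but the lengths alone bound the share of the former only at 16% to 73.5% in D17-c3 and 9.13% to 62.9% in S2-DRSC, so the direction of that share cannot be read. For skd the means were 10325.8 ± 24.9 and 10483.0 ± 15.4 bases (limma adjusted p = 0.000286).

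mor has a pair of transcripts, of 3791 and 3983 bases, so its lengths give the share directly: the shorter one made up 8.48% to 12.2% of mor transcripts in D17-c3 and 15.7% to 17.2% in S2-DRSC, without overlap. The difference in mean length behind it was 12.8 bases (limma adjusted p = 0.0062). In ash2, only the longest transcript (1949 bases) has the 1668 coding bases of the full protein, the shorter ones having 660 and 1050. The shorter ones were bounded at 60.1% to 82.4% of ash2 transcripts in D17-c3 and 65.9% to 88.1% in S2-DRSC. In both lines most ash2 transcripts were therefore estimated to be of the shorter kinds. For ash1 and trr one transcript of each pair made up at least 91.7% and 97.5% in every library, and brm, osa, ash1 and trr had no call in length.

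By position, 5 members lie on 3R, 3 on 3L, 1 on 2L and 1 on X. Around each, the 10 nearest tested genes on either side were compared. Around mor their median log2 fold change was -0.04, but the tested genes directly beside it, Rbf2 (-0.93) and Hel89B (-1.07), had values near that of mor (-0.91). The genes directly beside trr, CG14806 (-1.16) and mRpL16 (-1.02), also had values near that of trr (-0.87), and the median of its 20 neighbours was -0.38. Around ash1 the median was -0.55, close to ash1 itself at -0.47. Around trx, which was higher in D17-c3, it was -0.25 (quartiles -2.26 and 0.27). Around ash2, which was higher in S2-DRSC, it was 0.24 (quartiles -0.44 and 0.49). Neighbours of both were called in each direction, 5 toward D17-c3 and 9 toward S2-DRSC for trx, and 9 and 5 for ash2. Around skd (0.19) the median was 0.72, and around brm, osa, Snr1 and kis it was 0.20, -0.06, 0.28 and -0.09. CG14806 and Rbf2 also overlap trr and mor on the opposite strand, so their reads and those of the member may not be fully told apart.

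Genes on the opposite strand overlap 8 of the members, all but ash1 and Snr1, and although the kit keeps strand, per the labels, whether the counting used it was not stated in the sources used here. The overlapping gene with the most reads relative to its member was CG31125, opposite ash2, whose expected counts equalled 32.2% of those of ash2 in D17-c3 and 4.26% in S2-DRSC. CG14806, which overlaps the end of trr, equalled 15.5% and 18.9% of trr counts, Rbf2, opposite mor, equalled 5.03% and 5.12% of mor counts, and each of the others at most 2.41%. For ash2 the share held by its partner was higher in the line where ash2 was lower, and its part in the difference was not tested.

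Other genes linked to the Trithorax group were described by count. Of 10 genes, 3 were called toward D17-c3, 3 toward S2-DRSC and 4 had no call (median log2 -0.03), beside 75.2% called over all tested genes. lawc (93.7 ± 20.8 against 5.8 ± 0.697 CPM, log2 4.01 ± 0.17) and tna, whose product interacts with the Brahma complex (515 ± 78.6 against 90.9 ± 4.38 CPM, log2 2.50 ± 0.11), differed more than any member. vtd, which encodes a cohesin subunit (92.6 ± 6.85 against 216 ± 11.6 CPM, log2 -1.22 ± 0.07), and the histone demethylase gene lid (log2 -0.60 ± 0.07) led toward S2-DRSC. On unscaled TPM or with library totals only, 5 of the 10 were higher in D17-c3.

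Of 14 genes of other ATP-dependent remodellers, 11 were called toward S2-DRSC, 1 toward D17-c3 and 2 had no call, with a median log2 fold change of -0.53. Over all tested genes 75.2% were called, 36.1% toward S2-DRSC and 39.1% toward D17-c3. Chd3 (38.8 ± 3.02 against 82.8 ± 3.11 CPM, log2 -1.09 ± 0.07) and Ino80 (33.4 ± 2.45 against 68.5 ± 1.57 CPM, log2 -1.04 ± 0.07) had the largest fold changes toward S2-DRSC, and Chrac-16 (12.2 ± 1.66 against 6.69 ± 0.423 CPM, log2 0.87 ± 0.12) was the one higher in D17-c3. The count of 11 fell to 7 on unscaled TPM. Hox genes, the classic targets of the group, were tested for 4 of 8, of which 2 were called toward D17-c3 and 1 toward S2-DRSC, and all but Dfd were under 1 CPM in both lines.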

How the data were processed

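RNA-seq libraries of 2 cell lines, 4 per line, were grouped by their titles. The authors deposited, per the file headers, expected counts, TPM, FPKM and lengths per gene in the layout of RSEM. Per the submitters' processing notes, which give no roles or order, the builds were dm6 and BDGP6 and the tools RSEM, STAR 2.7.3a, Trim Galore 0.6.4, DESeq2 1.30.1, Subread 2.0.0 and featureCounts. The deposited FPKM values were not used, and the deposited TPM values sum to 1000000 per library and keep no depth.

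Expected counts were rounded and tested over all genes with edgeR 4.0.16 (TMM, filterByExpr, quasi-likelihood, design by line, Benjamini-Hochberg, threshold 0.05). SE was obtained by dividing the size of each log2 fold change by the root of its F statistic. Log2 length was tested with limma 3.58.1 over tested genes whose length varied by over 0.5 bases, and ratios with exact permutation tests. The edgeR and limma tests, but not the ratio tests, were run on simulated data in which few genes differed, equally in both directions. Scaling when most genes differ was therefore not checked. Positions and transcript lengths came from an Ensembl annotation of BDGP6, whose lengths equalled the deposited ones within 0.5 bases for 99.81% of single-transcript genes. Share bounds took every pairing of a shorter with a longer annotated transcript.

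Alternatives were median-of-ratios factors, library totals only, no filter, at least 1 CPM in 4 libraries, DESeq2 1.42.0, limma on log2(TPM + 1) and log2(TPM + 0.1), TPM after TMM scaling, the replicate number as a block, and each library left out. The members, lists and tests were chosen with earlier results of these data known. All members were named, as could be any Brahma, COMPASS or kinase module gene, with the 2 largest called per direction of other lists. MRG15, NimC1, Nplp2, ap, futsch, brp, vas, aub and Dfd were named after their values were seen, as were the neighbouring and overlapping genes and the transcript classes. Replicates were separate flasks, and no pair agreed within sampling noise (lowest chi-square of counts over its degrees of freedom 8.7). Libraries held no molecular identifiers. Marker sums without the most abundant gene of each list were added after the data were seen.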

Additional observations from a re-analysis of the deposited data

Results flagged for a closer look

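In 4 of 56 groups of 4 libraries, 1 library lay far from the other 3, where chance alone gives about 1 in 20 groups. trx in D17-c3 was highest in replicate 1, at 508 CPM against 460 to 468 in the others. ash2 in D17-c3 was lowest in replicate 2, at 66.8 CPM against 77.8 to 79.0. The mean transcript length of kis in D17-c3 was highest in replicate 2, at 14884.2 bases against 14136 to 14226 bases. The skd/kto TPM ratio in S2-DRSC was lowest in replicate 4, at 0.769 against 0.877 to 0.882.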

How the results depend on the processing

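The call of 4 members for S2-DRSC stayed within 1.5 times its count in all alternatives, and the 10 ratios kept their direction when any 1 library was left out. The 2 members higher in D17-c3 became 1 with DESeq2, with no filter and with the replicate number as a block, 4 on unscaled TPM with either pseudocount, and 1 to 3 with 1 library left out. Same-numbered flasks share only a number: their deviations from the line means correlated at 0.011, 0.115, -0.039 and 0.052, and the ratios were given no block test, since exact sign flips over 4 pairs cannot reach the threshold. The 2 members with longer transcripts in D17-c3 became 0 with effective length and 0 with the replicate block, and 1 to 2 with 1 library left out. With library totals only and on unscaled TPM, Brahma partners higher in D17-c3 went from 1 to 2 and those higher in S2-DRSC from 5 to 3, kinase module genes higher in S2-DRSC from 2 to 1, and other Trithorax-related genes higher in D17-c3 from 3 to 5. On unscaled TPM, COMPASS partners higher in S2-DRSC went from 4 to 2, kinase module genes higher in D17-c3 from 0 to 1, Mediator core genes higher in D17-c3 from 7 to 11, and other remodellers from 1 to 2 higher in D17-c3 and from 11 to 7 higher in S2-DRSC. COMPASS partners higher in D17-c3 were 3 with no filter and 3 to 6 with 1 library left out (3 without either S2-DRSC replicate 2 or D17-c3 replicate 4), and remodellers higher in D17-c3 were 1 to 2 (2 without D17-c3 replicate 2). Over all genes the median fitted log2 change was 0.04 in the main test, 0.21 with library totals only, and 0.18 (pseudocount 1) and 0.25 (pseudocount 0.1) on unscaled TPM, and the share of calls higher in D17-c3 was 52% in the main test, 60% with totals and 62.9% on unscaled TPM. Among the members, their partners in the 3 complexes and MRG15, log2 fold changes that turned direction with totals and on unscaled TPM were those of osa (0.09 and 0.16), Snr1 (0.08 and 0.14), kis (0.07 and 0.24), Bap111 (0.01 and 0.09), Ncoa6 (0.09 and 0.16), MRG15 (0.05 and 0.12) and Cdk8 (0.13, then 0.20 with pseudocount 1 and 0.21 with 0.1), and on unscaled TPM alone Bap55 (0.01). Without 1 library, Snr1 ranged from -0.19 to 0.02 and Cdk8 from -0.08 to 0.00. Cdk8 also turned with the 1 CPM filter (0.02), and it and Snr1 were highest without D17-c3 replicate 2. Utx turned without S2-DRSC replicate 4 (-0.03) and polybromo with no filter (-0.02) and without D17-c3 replicate 1 (-0.01), D17-c3 replicate 4 (-0.02), S2-DRSC replicate 2 (-0.01) or S2-DRSC replicate 4 (-0.01). The hemocyte marker NimC1 (-0.14) turned with totals (0.04) and without D17-c3 replicate 3 (0.06) or replicate 4 (0.10), and was -0.97 without replicate 2. Further genes of the other lists, not named here, also turned in at least 1 alternative. With effective length the log2 length difference turned for ash1 (-0.0004) and trr (-0.0003). The cause of these changes was not tested.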
